A study of Mus musculus with 12 samples.

Results

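Elastic fibres and the latent TGF-beta binding proteins attached to them were followed here through 10 genes: Eln, Emilin1, Fbn1, Mfap2, Mfap4, Mfap5, Ltbp1, Ltbp2, Ltbp3 and Ltbp4. They were given as a list of gene names that was drawn up with earlier results of these data known, so counts beside those of all genes are descriptions. They are 10 of the 16647 named genes measured. RNA of the left ventricle (a section of it) from C57/Bl6 mice was hybridised to 12 single-colour Agilent arrays, with 3 arrays in each of 4 groups. The groups were wild-type hearts after a sham operation, wild-type hearts after trans aortic banding (TAC, which narrows the aorta and raises the pressure load on the ventricle), hearts of CnAb1 transgenic overexpressing mice after sham, and hearts of those mice after TAC. All hearts were taken 21 days after surgery, and the question was how the response to banding differs when CnAb1, an alternatively spliced form of calcineurin A beta, is overexpressed. The labels name neither the promoter nor the cell type that drives the transgene, and they do not say whether each array was a separate animal, and every p-value below rests on array-to-array spread, which may be technical.

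Elastic fibres give tissue its recoil. Fibroblasts and smooth muscle cells lay down microfibrils, threads of fibrillin decorated with microfibril-associated proteins, and elastin is deposited on that scaffold and cross-linked by lysyl oxidases. Latent TGF-beta binding proteins (LTBPs) belong to the fibrillin superfamily. They tether newly secreted, inactive TGF-beta to the microfibrils, from which it can be released, except that LTBP2 does not bind latent TGF-beta. In the heart, TGF-beta is a main inducer of matrix synthesis by fibroblasts.

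The members were read by 13 probes, a single probe for 7 genes and a pair for Ltbp3, Ltbp4 and Mfap2. All 13 passed the filter on dim probes (well above background on at least 3 arrays), no value was missing or saturated, and 1 of 156 values, Emilin1 on transgenic sham array 2, was not well above background. That array stood apart: the net signal of its negative controls was 48.6, against 15.4 to 21.0 on the others, and 37.0% of its probes were well above background, against 60.2% to 78.1%. Without it, 9 members were still called for banding in wild-type hearts, 0 in transgenic hearts, 8 between the banded groups, 5 for the interaction and 0 between the sham groups. Levels are given as log2 of the processed signal minus the 75th percentile of the array, so a level of 0 is the array's upper quartile. That percentile itself lay between 8.89 and 9.16 (log2) in wild-type sham, 9.78 and 9.83 in wild-type TAC, 9.40 and 9.42 in transgenic sham, and 9.40 and 9.77 in transgenic TAC. The single probe for Ppp3cb, the gene that encodes CnAb1 and the other calcineurin A beta forms, differed by -0.27 ± 0.09 (log2, SE) between transgenic and wild-type sham (limma, Benjamini-Hochberg adjusted p = 0.181). Whether it reads the transgene is not known, so it does not check the labels.

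The promoters are shown because 9 of the members rose with banding in wild-type hearts while Ltbp1 did not. RefSeq promoter sequences (GRCm38.p6) were matched for 7 of the 10 members, with 11 annotated starts; Eln, Mfap4 and Mfap5 have no entry. The 250 bases before the start are printed 5′ to 3′ in the direction of the gene for Ltbp2 (chr12:84876492-84876741, minus strand), Emilin1 (chr5:30913536-30913785, plus strand), Fbn1 (chr2:125506439-125506688, minus strand) and the upstream start of Ltbp1 (chr17:75005279-75005528, plus strand). Capitals mark the SMAD box (CAGAC, bound by the transcription factors that carry the TGF-beta signal) and the core recognised by NFAT, the factor activated by calcineurin (GGAAAA), each on either strand.
Ltbp2: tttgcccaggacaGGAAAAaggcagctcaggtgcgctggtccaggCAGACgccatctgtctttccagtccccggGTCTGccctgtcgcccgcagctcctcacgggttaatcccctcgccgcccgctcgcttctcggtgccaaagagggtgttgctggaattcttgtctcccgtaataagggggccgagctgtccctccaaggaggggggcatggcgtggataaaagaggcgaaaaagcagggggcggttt
Emilin1: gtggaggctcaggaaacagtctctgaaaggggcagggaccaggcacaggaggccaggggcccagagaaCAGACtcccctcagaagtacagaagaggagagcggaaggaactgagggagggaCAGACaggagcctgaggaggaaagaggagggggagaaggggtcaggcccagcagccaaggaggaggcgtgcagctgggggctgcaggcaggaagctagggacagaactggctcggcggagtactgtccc
Fbn1: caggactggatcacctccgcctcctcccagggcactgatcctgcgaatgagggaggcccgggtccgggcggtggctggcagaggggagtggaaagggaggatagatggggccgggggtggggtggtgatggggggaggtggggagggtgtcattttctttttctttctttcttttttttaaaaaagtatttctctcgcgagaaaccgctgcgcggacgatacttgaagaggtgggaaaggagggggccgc
Ltbp1: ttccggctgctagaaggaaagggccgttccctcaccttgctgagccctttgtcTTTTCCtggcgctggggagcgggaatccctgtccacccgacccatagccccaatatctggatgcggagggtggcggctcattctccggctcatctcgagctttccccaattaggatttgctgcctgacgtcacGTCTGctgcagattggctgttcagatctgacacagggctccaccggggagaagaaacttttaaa
The Ltbp2 window holds 2 SMAD boxes and 1 NFAT core, the Emilin1 window 2 SMAD boxes, and the Fbn1 window neither motif. The Ltbp1 window printed holds 1 of each, and that of its other start 2 SMAD boxes and 0 NFAT cores. Of the 11 windows, 6 hold a SMAD box, against 42.2% of all 32851 windows of that length. These 6 belong to 5 of 7 genes, some with more than 1 window, so that count is not comparable with the share of windows. The NFAT core is in 3 windows, against 20.4%. The GC box (GGGCGG, either strand) is in 6 windows, against 32.7% of all. There are 2 in the Ltbp2 window, 1 in that of Fbn1 and 0 in those of Emilin1 and Ltbp1. All 3 windows of Ltbp4 hold it, but 2 of these overlap over nearly their whole length. An AP-1 motif (TGANTCA) is in 0 of the 11, against 6.75% of all windows. A match is a string of letters in the window and not a site of binding.

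Banding raised 9 of the 10 genes in wild-type hearts and none passed the test in transgenic hearts. In wild-type hearts Ltbp2 rose 73.3-fold, Mfap4 20.6-fold, Mfap5 8.93-fold, Fbn1 8.12-fold and Eln 5.42-fold, while Ltbp1 did not pass the test. The 9 that rose compare with 12.3% of all genes higher at the same threshold (adjusted p under 0.05, limma, Benjamini-Hochberg over all probes), and the median over the 10 members was 2.28 on the log2 scale, against -0.05 over all genes. For 9 of 10 members the 3 banded wild-type arrays did not overlap the 3 sham arrays, against 50.2% of all genes. With the slide as a fixed block 3 of the 9 (Emilin1, Fbn1 and Ltbp2) still passed, and all 9 kept their sign. In transgenic hearts 0 of the 10 passed, where 0% of all genes did, none of the 10 had an unadjusted p under 0.05 (1076 genes of 16647 did), and the median difference was 0.27. All member values, by array, are shown in the plot of scaled signals.

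**Figure D1:**
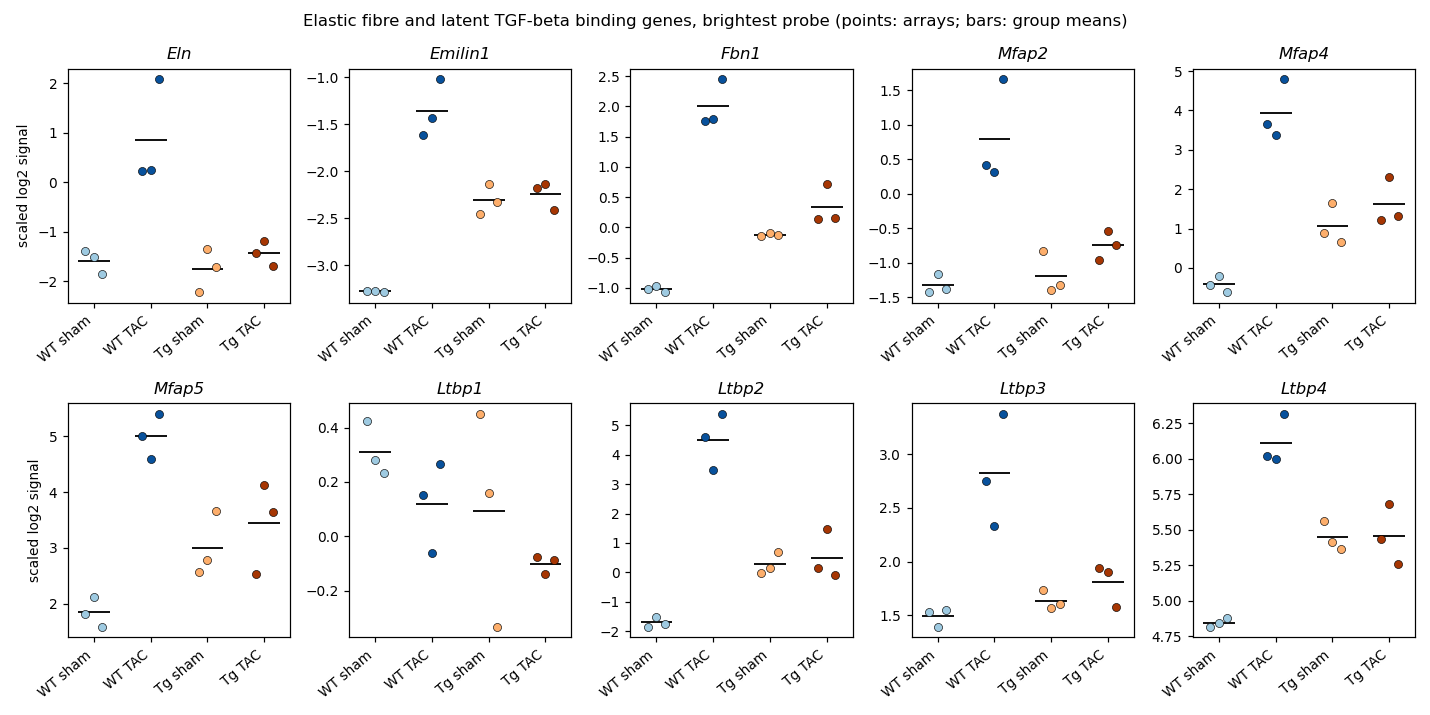
Scaled log2 signal (y axis) of the brightest probe of each member on the 12 arrays, by group (x axis; WT, wild type; Tg, transgenic); points are arrays and bars are group means. In 9 of 10 panels the wild-type TAC arrays lie above all the other arrays, and in the panel of Ltbp1 they do not.

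Eln encodes tropoelastin, the soluble precursor of the elastic core. Its signal was -1.39, -1.51 and -1.86 on the 3 wild-type sham arrays and 0.23, 0.24 and 2.08 on the wild-type TAC arrays. In transgenic hearts it was -2.22, -1.34 and -1.71 after sham and -1.44, -1.18 and -1.70 after TAC. Wild-type TAC array 3 was far above the other arrays of its group, and all 3 were above every other array, while the 2 transgenic groups overlapped each other and the wild-type sham arrays. The rise in wild-type hearts was 2.44 ± 0.45 (log2, SE; adjusted p = 0.00619, limma), and 1.82 without array 3 (adjusted p = 0.00761). The difference in transgenic hearts was 0.32 ± 0.45 (adjusted p = 0.888), with a 95% interval of -0.69 to 1.33.

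Fbn1 encodes fibrillin-1, the main structural protein of microfibrils. Its signal was -1.02, -0.97 and -1.07 in wild-type sham and 1.76, 1.79 and 2.45 in wild-type TAC. The transgenic arrays read -0.15, -0.09 and -0.12 after sham and 0.14, 0.72 and 0.15 after TAC. No group overlapped another: wild-type sham was lowest, then transgenic sham, transgenic TAC and wild-type TAC. The wild-type rise was 3.02 ± 0.21 (log2, SE; adjusted p = 0.000334), and the transgenic difference was 0.46 ± 0.21 (adjusted p = 0.786), the only transgenic response among the members whose arrays did not overlap, against 9.69% of all genes. In sham hearts the transgenic level was 0.90 ± 0.21 higher, which did not pass the test (adjusted p = 0.0684).

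Emilin1 encodes an elastin-microfibril interface glycoprotein that also limits the processing of pro-TGF-beta. It was at -3.28, -3.27 and -3.29 in wild-type sham, a range of hundredths, and at -1.62, -1.43 and -1.02 in wild-type TAC. Transgenic hearts gave -2.46, -2.14 and -2.33 after sham and -2.18, -2.14 and -2.41 after TAC, between the wild-type groups and overlapping each other. It rose by 1.92 ± 0.16 in banded wild-type hearts (log2, SE; adjusted p = 0.00045) and differed by 0.06 ± 0.16 in banded transgenic hearts (adjusted p = 0.934). Emilin1 was the only member called between the sham groups, higher in transgenic hearts by 0.97 ± 0.16 (1.96-fold; adjusted p = 0.0267). Without transgenic sham array 2, on which it was not well above background, that difference was 0.89 with an adjusted p of 0.0826.

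Mfap4, an extracellular glycoprotein that binds elastin and microfibrils, had the largest rise of the microfibril-associated members. Its signal was -0.44, -0.20 and -0.62 in wild-type sham and 3.66, 3.39 and 4.80 in wild-type TAC. After sham the transgenic arrays gave 0.89, 1.66 and 0.66, and after TAC 1.21, 2.31 and 1.32. All transgenic arrays lay between the wild-type groups, and sham and TAC overlapped. The rise in wild-type hearts was 4.37 ± 0.42 (log2, SE; adjusted p = 0.000692) against 0.54 ± 0.42 in transgenic hearts (adjusted p = 0.815).

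Mfap5 encodes MAGP-2, a small microfibril protein. It read 1.82, 2.12 and 1.59 in wild-type sham and 5.01, 4.60 and 5.41 in wild-type TAC. Transgenic sham arrays gave 2.56, 2.78 and 3.66, and transgenic TAC arrays 2.53, 4.14 and 3.65. The transgenic groups spread over more than 1 log2 unit each and overlapped fully, above every wild-type sham array and below every wild-type TAC array. The wild-type rise was 3.16 ± 0.42 (log2, SE; adjusted p = 0.00191), and the transgenic difference was 0.44 ± 0.42 (adjusted p = 0.84).

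Mfap2 encodes MAGP-1, the other small microfibril protein, and its probes disagreed. The first, A_55_P2062793, read -1.42, -1.16 and -1.37 in wild-type sham and 0.42, 0.32 and 1.66 in wild-type TAC, a rise of 2.12 ± 0.32 (log2, SE; adjusted p = 0.00295). On it the transgenic arrays read -0.83, -1.40 and -1.32 after sham and -0.95, -0.54 and -0.75 after TAC, a difference of 0.44 ± 0.32 (adjusted p = 0.805). The second, A_55_P2181597, is annotated to the same transcript and read -0.91, -0.86 and -1.42 in wild-type sham and -1.09, -1.19 and -0.63 in wild-type TAC. In transgenic hearts it read -1.01, -1.40 and -1.37 after sham and -1.20, -1.33 and -1.12 after TAC, so all its groups overlapped. Its difference was 0.09 ± 0.20 (adjusted p = 0.803), with a 95% interval of -0.35 to 0.54. Mfap2 was counted by the first probe, the brighter by the mean over all 12 arrays, a mean that its high values in banded wild-type hearts enter. Which probe is right is not known; counted by the second, the wild-type rise would hold for 8 members. The probes of Ltbp3 and of Ltbp4 had the same direction and call for banding in wild-type hearts. Between the banded groups the second probe of Ltbp3, at -0.89, did not pass (adjusted p = 0.0528), while the first did.

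**Figure D2:**
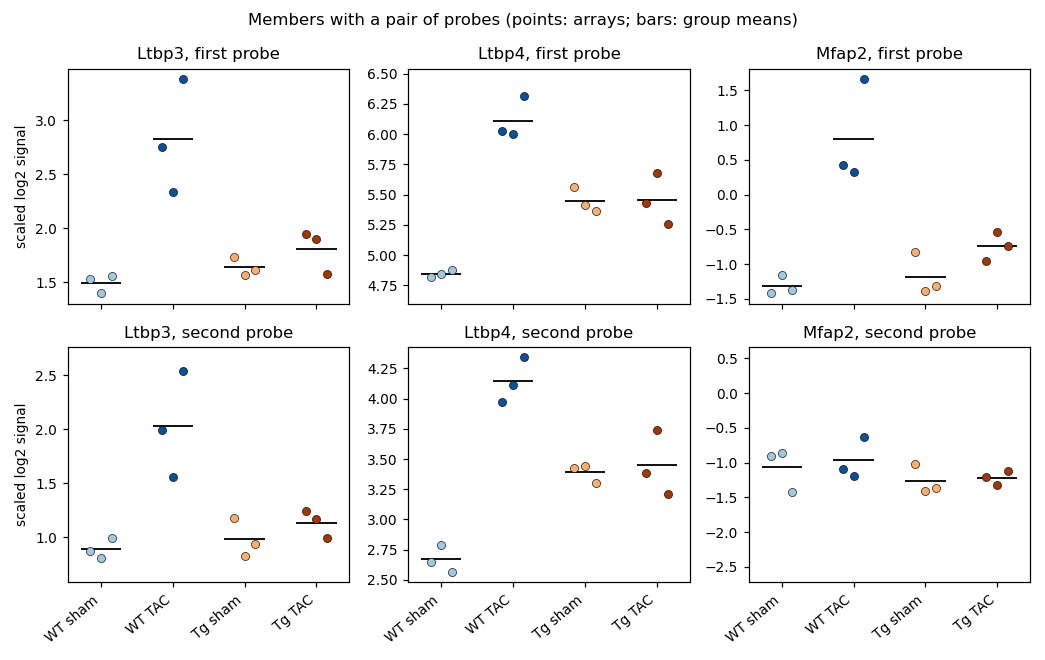
Scaled log2 signal (y axis) of both probes of Ltbp3, Ltbp4 and Mfap2 by group (x axis; WT, wild type; Tg, transgenic), with axes of equal height within each gene; points are arrays and bars are group means. The first probe of Mfap2 rises by 2.12 (log2) in banded wild-type hearts and the second differs by 0.09, while both probes of Ltbp3 and Ltbp4 rise.

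The 4 latent TGF-beta binding proteins differed in the size of their response. Ltbp2, which associates with microfibrils without carrying TGF-beta, read -1.85, -1.51 and -1.77 in wild-type sham and 4.59, 3.48 and 5.40 in wild-type TAC. Transgenic arrays read -0.03, 0.15 and 0.70 after sham and 0.14, 1.46 and -0.09 after TAC. The transgenic arrays overlapped each other and stood apart from both wild-type groups. Banding raised it by 6.20 ± 0.50 in wild-type hearts (log2, SE; adjusted p = 0.00045), with a 95% interval of 5.07 to 7.32. The transgenic difference was 0.23 ± 0.50 (adjusted p = 0.923), with an interval of -0.89 to 1.36.

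Ltbp3, a carrier of latent TGF-beta with a role in bone, read 1.53, 1.40 and 1.55 in wild-type sham and 2.75, 2.33 and 3.38 in wild-type TAC on its first probe. In transgenic hearts it read 1.74, 1.57 and 1.61 after sham and 1.94, 1.90 and 1.58 after TAC. Only the banded wild-type arrays stood clearly above the rest. The wild-type rise was 1.33 ± 0.23 (log2, SE; adjusted p = 0.0045), and 1.13 ± 0.22 on the second probe (adjusted p = 0.00681), against 0.17 ± 0.23 in transgenic hearts (adjusted p = 0.88).

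Ltbp4, which also takes part in elastin assembly, read 4.82, 4.85 and 4.88 in wild-type sham and 6.02, 5.998 and 6.32 in wild-type TAC on its first probe. In transgenic hearts it read 5.56, 5.41 and 5.37 after sham and 5.44, 5.68 and 5.26 after TAC. Both transgenic groups sat between the wild-type groups and overlapped. The wild-type rise was 1.27 ± 0.13 (log2, SE; adjusted p = 0.000835), and 1.47 ± 0.15 on the second probe (adjusted p = 0.000785). The transgenic difference was 0.01 ± 0.13 (adjusted p = 0.986), with a 95% interval of -0.29 to 0.31.

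Ltbp1, the LTBP best known for storing latent TGF-beta in the matrix, read 0.42, 0.28 and 0.23 in wild-type sham and 0.15, -0.06 and 0.27 in wild-type TAC. Transgenic arrays read 0.45, 0.16 and -0.33 after sham and -0.08, -0.14 and -0.09 after TAC. Its groups overlapped except that every transgenic TAC array was below every array of both wild-type groups. The wild-type difference was -0.19 ± 0.18 (log2, SE; adjusted p = 0.52), and its 95% interval, -0.60 to 0.21, lies below those of the other 9 members by their brightest probes. The transgenic difference was -0.19 ± 0.18 (adjusted p = 0.836). Between genotypes the differences were -0.22 after sham and after TAC, neither of which passed (adjusted p = 0.574 and 0.532).

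**Figure D3:**
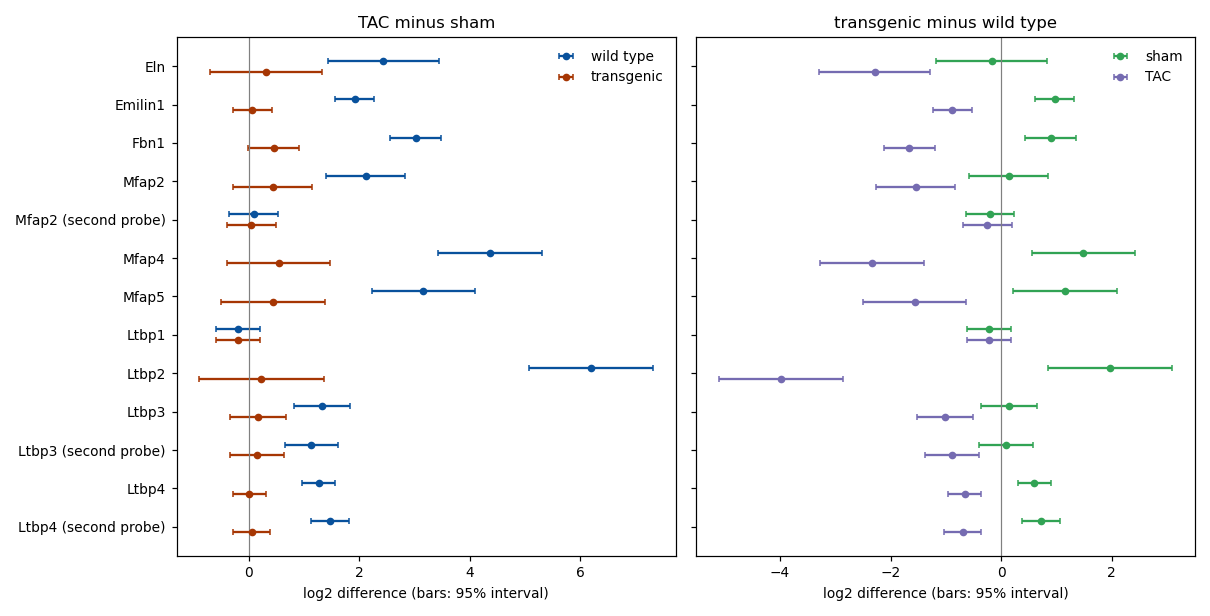
Log2 differences (x axes) with 95% intervals for every member probe (y axis), TAC minus sham in each genotype (left) and transgenic minus wild type after each operation (right). On the left the wild-type points run from -0.19 for Ltbp1 to 6.20 for Ltbp2 and the transgenic points from -0.19 to 0.54; on the right, after TAC all points lie below 0.

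Whether banding acted differently in the genotypes was tested as the interaction, the transgenic response minus the wild-type response. It passed for 6 members, all with the smaller response in transgenic hearts: Fbn1, Ltbp2, Ltbp4, Mfap4, Mfap5 and Emilin1, where 4.40% of all genes were lower. The values were -5.96 ± 0.71 for Ltbp2 (log2, SE; adjusted p = 0.0118), -3.82 ± 0.59 for Mfap4 (adjusted p = 0.0153), -2.72 ± 0.59 for Mfap5 (adjusted p = 0.0314) and -2.56 ± 0.29 for Fbn1 (adjusted p = 0.0118). Emilin1 gave -1.86 ± 0.22 (adjusted p = 0.0118) and Ltbp4 -1.25 ± 0.19 (adjusted p = 0.0143). Those that did not pass were Eln at -2.12 ± 0.64 (adjusted p = 0.0752), Mfap2 at -1.68 ± 0.46 (adjusted p = 0.0564), Ltbp3 at -1.16 ± 0.32 (adjusted p = 0.0599) and Ltbp1 at -0.00 ± 0.26 (adjusted p = 0.997). These values are of the brightest probes. The second probe of Mfap2 gave -0.05 ± 0.28 (adjusted p = 0.941) and that of Ltbp3 -0.98 ± 0.31 (adjusted p = 0.0826). That of Ltbp4 passed, at -1.42 ± 0.21 (adjusted p = 0.0143). The median over the members, with Mfap2 by its first probe, was -1.99, against 0.02 over all genes. Without wild-type sham array 1, 0 members passed, as did 0 of all probes, and the adjusted p of the same 6 then ran from 0.051 to 0.0784. With the slide as a fixed block, or with normexp background correction, 0 passed as well, and under both all 6 kept their sign.

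Banded transgenic hearts had lower levels than banded wild-type hearts for 8 members (all but Ltbp1 and Mfap5), where 2.81% of all genes were lower. Ltbp2 differed by -3.99 ± 0.50 (log2, SE; adjusted p = 0.00583), Mfap4 by -2.33 ± 0.42 (adjusted p = 0.0227), Eln by -2.29 ± 0.45 (adjusted p = 0.0296) and Fbn1 by -1.66 ± 0.21 (adjusted p = 0.00557). Mfap5 differed by -1.57 ± 0.42 (adjusted p = 0.0682). All 10 members were below 0 with arrays that did not overlap. Of all genes 35.3% had arrays that did not overlap, with either group the higher. Both counts take Mfap2 by its first probe; by its second, at -0.25 (adjusted p = 0.525) with overlapping arrays, they would be 7 and 9. The count fell to 2 without transgenic TAC array 1 or 3, to 4 without transgenic TAC array 2, wild-type TAC array 1 or 3, or wild-type sham array 1, and to 5 without wild-type sham array 2 or 3. It was 1 under normexp correction, and 0 with the slide as a fixed block or with the banded groups fitted alone; the 8 kept their sign in each of these fits. This comparison and those above share groups of arrays, so their counts are not separate evidence.

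In sham hearts 1 member, Emilin1, was called higher in transgenic mice, where 0.787% of all genes were, and none was called lower. A further 5 had unadjusted p-values under 0.05 without passing: Ltbp2 at 1.98 ± 0.50 (log2, SE; adjusted p = 0.0938), Mfap4 at 1.49 ± 0.42 (adjusted p = 0.119), Mfap5 at 1.15 ± 0.42 (adjusted p = 0.202), Fbn1 and Ltbp4. For 7 of the 10 the sham arrays of the genotypes did not overlap, against 25.4% of all genes. Ltbp3 is among these by its first probe, with a difference of only 0.14 (adjusted p = 0.782). The sham arrays of its second probe overlapped. Emilin1 lost its call without any of the 3 wild-type sham arrays or without transgenic sham array 2 or 3, and a trended robust fit called 5 members.

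The transgenic levels can be placed on the span between the wild-type sham mean (0%) and the wild-type TAC mean (100%), on the log2 scale. Transgenic sham hearts stood at 29.8% for Fbn1, 31.9% for Ltbp2, 34.1% for Mfap4, 36.5% for Mfap5, 47.4% for Ltbp4 and 50.5% for Emilin1. Of these only Emilin1 passed the test between the sham groups. For Eln, Mfap2 (first probe) and Ltbp3, transgenic sham hearts stood at -6.90%, 6.40% and 10.8%. The second Mfap2 probe, which differed by 0.09 with banding in wild-type hearts, gives no span to place them on. Banded transgenic hearts stood at 6.13% for Eln, 23.7% for Ltbp3, 27.0% for Mfap2 and 35.7% for Ltbp2, and between 44.99% and 53.9% for the other 5. The order of the group means was the same for 8 members, from wild-type sham through transgenic sham and transgenic TAC to wild-type TAC. Among these only Fbn1 had transgenic sham and TAC arrays that did not overlap. The step from transgenic sham to transgenic TAC was 0.01 for Ltbp4, 0.06 for Emilin1 and 0.23 for Ltbp2. That step changed sign for each of these genes with an array left out. Mfap2 has this order by its first probe only, since on its second both transgenic means were below wild-type sham. The grouping of Eln, Mfap2 and Ltbp3 was seen in the values and was not tested. Ltbp1 has no span to place the others on.

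**Figure D4:**
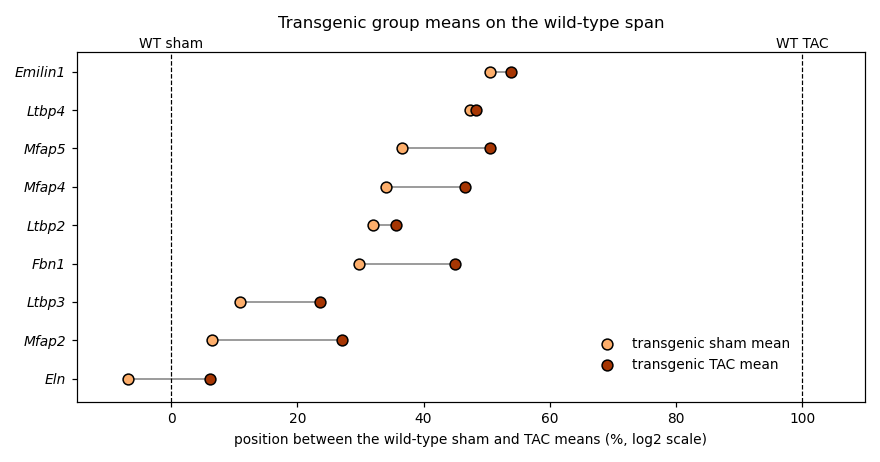
Position of the transgenic sham and transgenic TAC means (x axis, %) between the wild-type sham mean (0) and the wild-type TAC mean (100) on the log2 scale, for the 9 members that rose in wild-type hearts by their brightest probes (y axis). Mfap2 is placed by its first probe, and its second did not rise. For 6 members the transgenic sham mean lies between 29.8% and 50.5% of the span; for Eln, Mfap2 and Ltbp3 it lies between -6.90% and 10.8%.

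In the banded groups single arrays were high across the members. Wild-type TAC array 3 was the highest of its group for 10 of 10 members, and array 2 the lowest for 7. Transgenic TAC array 2 was the highest of its group for 8 members. In the sham groups no array was the highest for more than 6. The arrays came on 5 slides, and the slides held groups unevenly. Slide 3 held only transgenic sham array 3, slide 5 only wild-type sham array 3, and slide 4 only transgenic TAC arrays 1 and 2. With the slide as a fixed block these arrays add nothing to a group difference. Banded transgenic hearts then rest on array 3 alone. Within slide 2, the banded wild-type array exceeded the mean of the 2 wild-type sham arrays for 9 members, with a median of 1.77 and 5.15 for Ltbp2. Within slide 1, the banded transgenic array was below the mean of the 2 banded wild-type arrays for all 10, with a median of -1.67. On that slide the banded and the sham transgenic array differed by a median of 0.07. Within slide 2, the transgenic sham array exceeded the wild-type sham mean for 8 members, with a median of 0.69. No slide held all 4 groups, so the interaction has no value within a slide.

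Other genes of elastic fibre assembly and of the TGF-beta pathway are described by list; over all genes 12.3% rose with banding in wild-type hearts and 4.40% had a negative interaction that passed. Of 22 genes for assembly and cross-linking, 14 rose and 2 fell with banding in wild-type hearts (over all genes 11.8% were lower), 0 passed in transgenic hearts, and 11 had a negative interaction that passed. Loxl4, a lysyl oxidase-like enzyme, was called higher in banded wild-type hearts (adjusted p = 0.00045), but it was well above background on only 1 of 3 wild-type sham arrays and 2 of 3 transgenic sham arrays, so the size of its difference is not given. The cross-linking enzymes Loxl3 and Loxl1 rose by 3.32 and 2.37, Fn1 (fibronectin) by 3.11, and Efemp2 (fibulin-4, needed for elastin assembly) by 1.32. Loxl3 was well above background on 2 of 3 transgenic sham arrays. The 2 that fell, named here after their values were seen, were Emilin2, a relative of Emilin1, which fell by 0.998 ± 0.13 (adjusted p = 0.00187), and Adamts17, which fell by 0.61 ± 0.18 (adjusted p = 0.0416). Adamts17 was well above background on 2 of 3 arrays of each sham group.

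Among 16 measured TGF-beta ligands and activators, 10 rose in wild-type hearts (12.3% of all genes did) and 6 had a negative interaction that passed (4.40% of all genes). Tgfb2, a ligand, rose by 2.70 ± 0.27 (log2, SE; adjusted p = 0.00073), Thbs1, which can activate latent TGF-beta, by 3.95 ± 0.58, and Bmp1, a protease that cleaves LTBP1 and procollagens, by 1.38 ± 0.12. The gelatinase Mmp2 rose by 2.40 ± 0.25. Thbs1 was well above background on 2 of 3 transgenic sham arrays. Of 14 measured receptors and SMADs 2, Tgfbr2 (1.16 ± 0.18) and Tgfbr1 (0.99 ± 0.19), rose, a share near the 12.3% of all genes, with a list median of 0.17. Both had a negative interaction at adjusted p-values of 0.0478 and 0.0481. That count of 2 became 0 with quantile or median scaling, normexp correction, no filter, averaged probes, either slide block or the outlier spots included, and 1 with the deposited table. Smad3 and Skil, at 0.52 and 0.68, did not pass.

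Of 14 measured TGF-beta responsive genes, 12 rose in wild-type hearts (12.3% of all genes) and 7 had a negative interaction that passed (4.40% of all genes). The collagen chains Col5a2, Col1a1 and Col1a2 rose by 4.96, 3.66 and 3.11 (log2), and Postn (periostin) by 5.44. Col5a2 was well above background on 2 of 3 arrays of each sham group. Among 15 genes listed as elastin-degrading enzymes and inhibitors, 5 were called higher in wild-type hearts, against 12.3% of all genes. Ctsk, an elastin-cleaving cathepsin, rose by 2.38 ± 0.30. The others were Adamts1, Timp2, Adamts4 and Ctss, the last named after its values were seen. Of these, Adamts1 and Adamts4 are proteases known chiefly for substrates other than elastin, so the count is not one of elastin-degrading genes alone. Adamts4 was not well above background on any sham array of either genotype. It passed the filter only through the banded groups, with all 3 arrays of each well above background, and the count of 5 includes it. Over the 5 lists together 27 of 81 genes had an interaction that passed, and 0 did without wild-type sham array 1, with normexp correction or with the slide as a fixed block. The count was 10 without wild-type sham array 3, 14 or 16 without transgenic TAC array 1 or 3, and 17 without wild-type TAC array 1.

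**Figure D5:**
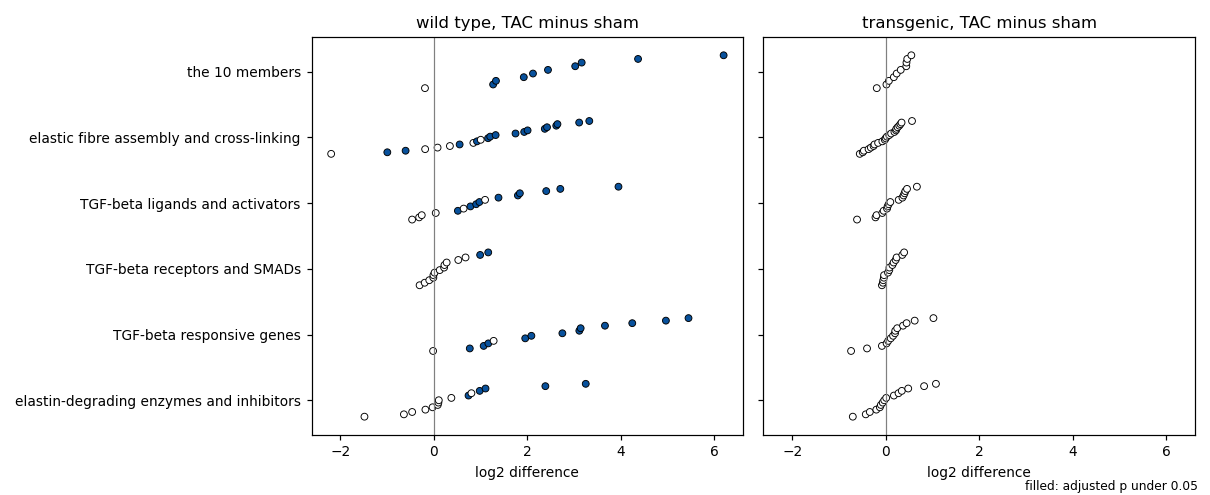
Log2 difference between TAC and sham (x axes) in wild-type (left) and transgenic hearts (right) for the 10 members and the genes of 5 lists (y axis); each point is a gene by its brightest probe, filled where the adjusted p is under 0.05. In wild-type hearts 9 members and 45 of 81 listed genes are filled, and in transgenic hearts 0 are.

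Cell type markers also differed between the groups, and in whole-tissue RNA fewer cells of a type and less RNA per cell cannot be told apart. Of 8 fibroblast markers 5 rose in wild-type hearts (over all genes 12.3% rose and 11.8% fell), with a summed linear level of 143 to 226 in wild-type sham, 294 to 322 in wild-type TAC, 234 to 261 in transgenic sham and 223 to 251 in transgenic TAC. Dcn and Gsn, the brightest of these in wild-type sham at means of 6.54 and 6.07 (log2), weigh most in the sums. Gsn was not called for banding in wild-type hearts (0.19, adjusted p = 0.483, limma). For 6 markers of activated fibroblasts 5 rose, and the sums were 14.5 to 15.5, 42.7 to 139, 34.8 to 53.5 and 22.2 to 38.7. Cthrc1, counted among the 5, was well above background on all 3 wild-type TAC arrays but on only 1 of 3 arrays of each sham group. It was not well above background on any transgenic TAC array. Of 9 smooth muscle and pericyte markers 4 rose, with sums of 46.0 to 51.0, 47.9 to 62.4, 67.9 to 81.3 and 46.1 to 68.0. Acta2, on this list too, differed by 1.65 (log2) between transgenic and wild-type sham. The other markers of the list differed by -0.25 (Smtn) to 0.74 (Cspg4), and 0 of the 9 were called. The higher sum in transgenic sham therefore does not hold for each marker. Of 6 endothelial markers 4 rose and 1 fell, of 6 macrophage markers 2 rose, and of 8 cardiomyocyte markers 7 fell, their sum going from 3142 to 3341 in wild-type sham to 1782 to 2130 in wild-type TAC. The sum ranged from 2352 to 2579 in transgenic sham and from 2056 to 2531 in transgenic TAC hearts. Of 4 epicardial markers 1 fell, of 3 tendon and valve markers 2 rose, and none of the adipocyte, Schwann, skeletal muscle or lymphatic markers was called. The activated fibroblast sums were lowest and highest in the unbanded and banded wild-type hearts, and those of transgenic sham overlapped the banded ones. Acta2 was the brightest of these markers in transgenic sham, at a mean of 5.37 (log2). Its wild-type means were 3.72 unbanded and 3.71 banded. Postn, Meox1, Comp and Cilp averaged 0.19, 0.16, -1.86 and -0.12 in transgenic sham, against 4.30, 2.40, 4.25 and 4.10 in banded wild-type hearts. The overlap of the sums therefore does not hold for those markers. The activated fibroblast list shares Postn, Acta2 and Meox1 with other lists. The part of these cell types in the members' differences was not tested.

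For each member the genes with the closest pattern over the 12 arrays were found by the root mean square difference of their centred log2 signals, among 15864 named genes. Closest to Fbn1 were Serpinf1 (0.17) and Col16a1 (0.22), to Ltbp2 the matrix proteins Cilp (0.51) and Postn (0.57), and to Mfap4 Nox4 (0.28) and Col5a2 (0.37). Eln was nearest to Slc13a4 (0.40) and Ccn2 (0.41), Mfap5 to Fibin and Fstl1 (both 0.33), and Mfap2 to Tmem45a (0.15) and C1qtnf5 (0.16). For Emilin1 these were Naalad2 (0.16) and Pcdhb22 (0.17), for Ltbp3 Tns3 and Samd14 (both 0.13), and for Ltbp4 Dap (0.09) and Lamc1 (0.10). Ltbp1, whose own spread was 0.23, was nearest to Capn1 (0.10) and Caprin2 (0.11).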

How the data were processed

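RNA from 12 arrays, 3 in each of 4 groups, was measured. Per the file headers, the deposited array files hold spot intensity from Agilent Feature Extraction 10.7.3.1: a processed signal, background-subtracted and not scaled between arrays, and median spot and surrounding signals. The values in the deposited table are log2; compared with the scanner files, they closely follow scaled log2 processed signals with the median of each probe subtracted (lowest r over an array's probes 0.9995). The submitters' processing notes name RMA, without its role.

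Outlier spots were left out, replicate spots averaged, and each array's 75th percentile subtracted after log2. Probes were named by transcript accession through a RefSeq table of GRCm38.p6 (26424 of 39429 probes); the arrays' annotation is of mm9, so only promoter positions are given. The 30347 probes that were well above background on 3 or more of the 12 arrays entered a limma fit (version 3.58.1, R 4.3.3) with group means, 8 residual and 1.80 prior degrees of freedom, two-sided, with Benjamini-Hochberg adjustment over all probes and a threshold of 0.05. A gene was counted by its brightest probe. The fit was tested on simulated data. One further label gives a time of 0 for sham; 21 days, from the protocol, was used.

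The members and the gene lists were chosen with earlier results of these data known. Named are all members, up to 4 genes per list with the smallest p for banding in wild type and for the interaction, and the 2 closest genes to each member. Same-numbered arrays did not deviate together (18 pairs, r from -0.38 to 0.22), so numbers were not taken as pairs. The number of arrays limits precision.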

Additional observations from a re-analysis of the deposited data

Results flagged for a closer look

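The response to banding differed between the genotypes for 6 members, by the test of the interaction itself, in the direction of a smaller response in transgenic hearts. The differences in response, on the log2 scale, were -5.96 for Ltbp2, -3.82 for Mfap4, -2.72 for Mfap5, -2.56 for Fbn1, -1.86 for Emilin1, and -1.25 and -1.42 for the probes A_51_P403536 and A_55_P2033500 of Ltbp4. The calls were fragile: 0 of the 6 passed without wild-type sham array 1, with normexp background correction or with the slide as a fixed block.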

How the results depend on the processing

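The count of 9 members that rose with banding in wild-type hearts stayed at 9 whichever array was left out, and was 8 with a filter on all 12 arrays, which left out Emilin1, and 3 (Emilin1, Fbn1 and Ltbp2) with the slide as a fixed block. In transgenic hearts 0 members were called in any setting. Called members kept their sign in every setting that measured them. The count of 1 member between sham groups became 0 with median scaling, normexp correction, no filter, the slide as a fixed block or only the compared groups in the fit, 4 with a filter on all 12 arrays and 5 with a trended robust fit, and ran from 0 to 2 with an array left out. The 8 lower between banded groups became 4 with median scaling or no filter, 1 with normexp and 0 with the slide as a fixed block or only the compared groups, and ran from 2 to 8 with an array left out. The 6 for the interaction became 0 with normexp or the slide as a fixed block, and ran from 0 to 8 with an array left out. The causes were not tested. With the slide as a fixed block fewer arrays entered each comparison, and banded transgenic hearts rested on array 3 alone. With the slide as a random block the counts were 9, 1, 8 and 6.

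With the replicate number as a block, a number not taken to pair the arrays, 9 members were called for banding in wild-type hearts. In that fit 0 were called between sham groups, 3 between banded groups and 5 for the interaction. For the listed genes 12 were called between banded groups and 17 for the interaction.

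For the 81 listed genes, counts chosen as results after seeing the data, 45 were called for banding in wild-type hearts, and 27 with normexp, 8 with the slide as a fixed block and 32 to 48 with an array left out. Between sham groups 1 was called, and 0 with quantile scaling, normexp, the mean over a gene's probes or the slide as a fixed block, 9 with the filter on all arrays, 11 with the trended robust fit and 1 to 4 with an array left out. Between banded groups 24 were called, and 14 with median scaling, 5 with normexp, 13 with no filter, 39 with the trended robust fit, 0 with the slide as a fixed block or only the compared groups and 8 to 28 with an array left out. For the interaction 27 were called, and 0 with normexp or the slide as a fixed block, 16 with no filter and 0 to 27 with an array left out. Of all genes, 12.3% were higher and 11.8% lower for banding in wild type. The shares were 0.787% higher between sham groups, 2.81% lower between banded groups and 4.40% with a negative interaction. The 1 called between sham groups, Loxl4, was well above background on only 1 of 3 wild-type sham arrays. Of the 24 between banded groups, Emilin2 was higher in transgenic hearts and the rest were lower.

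Scaling moved all probes as well. The share of higher among all calls for the interaction was 53.3%, and 37.5% with quantile and 32.1% with median scaling; between sham groups it was 53.6%, 75% and 73.8%. With normexp the median of all probes for banding in wild-type hearts was 0.28, against -0.09.

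Differences that changed sign were all uncalled. With the slide as a fixed block the response to banding in transgenic hearts was -0.076 for Emilin1, -0.32 and -0.28 for Ltbp3, -0.31 and -0.23 for Ltbp4, -0.55 for Ltbp2, -0.024 for Mfap4 and -0.086 for the second Mfap2 probe. In that fit the sham difference was -0.059 and -0.12 for Ltbp3 and -0.15 for the first Mfap2 probe, and the second Mfap2 probe gave -0.32 for banding in wild type and 0.24 for the interaction. With the slide as a random block Ltbp4 gave -0.038 in transgenic hearts, Ltbp1 0.029 for the interaction, and the second Mfap2 probe 0.051 for the interaction and -0.0017 in wild type. Median scaling gave -0.051 and -0.0072 for Ltbp4 and -0.016 for the second Mfap2 probe in transgenic hearts. Normexp gave -0.063 for Ltbp4 there and 0.0044 for the sham difference of Eln. The gene mean gave -0.032 for the sham difference of Mfap2. For the interaction Ltbp1 was 0.0089 with the deposited table and 0.0097 with outlier spots kept.

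With an array left out, the transgenic response ran from -0.011 to 0.15 for Emilin1, -0.10 to 0.11 and -0.089 to 0.17 for the Ltbp4 probes, -0.25 to 0.53 for Ltbp2 and -0.022 to 0.17 for the second Mfap2 probe. The sham difference ran from -0.38 to 0.064 for Eln, -0.041 to 0.24 for the first Mfap2 probe and -0.0066 to 0.17 for the second Ltbp3 probe. The interaction ran from -0.21 to 0.18 for Ltbp1 and -0.16 to 0.13 for the second Mfap2 probe, whose wild-type difference ran from -0.086 to 0.21.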
